A study of Mus musculus with 12 samples.

Results

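Histone acetylation was examined at the 70 protein-coding genes with a solute carrier (Slc) symbol on mouse chromosome 1 (16 genes), chromosome 2 (34) and chromosome 3 up to position 122275556 (20), which is the stretch that all 4 peak lists for acetylation of histone H3 at lysine 27 (H3K27ac) cover. The genes were taken by symbol and position, with earlier results of these data known. They come from 3789 protein-coding genes in this stretch and 375 Slc genes in the whole gene table. For acetylation at lysines 9 and 14 (H3K9/14ac), whose lists share chromosome 1 and chromosome 2 up to position 167064301, 48 of the 70 could be compared. For each gene the sequenced tags of all peaks in the gene body and 10000 bp either side were summed, and this window is meant wherever tags of a gene are given.

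Solute carriers are membrane proteins that move ions, metals, sugars, amino acids, nucleotides and vitamins across the plasma membrane or into organelles. Families are numbered by sequence, so that members of a family often share a class of substrate. H3K27ac marks active promoters and enhancers, while H3K9/14ac is found mainly around active promoters. Trichostatin A (TSA) inhibits histone deacetylases, the enzymes that remove these marks.

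The source is labelled as fibro-adipogenic progenitors (FAPs), which are resident mesenchymal cells of muscle able to form adipocytes or fibroblasts. All groups were C57Bl6 mdx mice, which lack dystrophin and develop a muscular dystrophy, so there is no healthy control. Mice aged 1.5 months (young) or 12 months (old) received 0.6 mg/kg of TSA per day, or the saline vehicle alone, by injection into the peritoneum daily for 15 days, and cells were sorted by flow cytometry (gate not given). Each mark, age and treatment had 1 library, so every difference below is a difference between 2 libraries, with no replicate and no test, and age and the stage of the disease cannot be told apart. How many animals went into a library is not stated in the labels.

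Peaks of the stretch held between 952786 and 1659160 H3K27ac tags per library and between 426273 and 631446 H3K9/14ac tags. Median log2 ratios over regions marked in all 4 lists were, for H3K27ac, -0.12 (TSA over vehicle at the young age), 0.50 (the same at the old age), -0.61 (old over young under vehicle) and 0.03 (under TSA). For H3K9/14ac they were 0.40, -0.47, 0.34 and -0.48. Relative tags are the log2 ratio of a gene's tags minus this median, and their ± is counting error (SE) only. The H3K27ac libraries were most alike within an age (Spearman 0.950 for the young and 0.931 for the old pair, across 3706 regions, which are not independent replicates), whereas the young TSA and old vehicle libraries were the most alike for H3K9/14ac (0.911, across 1709 regions), closely followed by the young pair (0.909), and the old pair was the least alike (0.879). The labels were taken as given. Whether H3K9/14ac labels were exchanged cannot be settled from these data, which bears on the direction of every H3K9/14ac difference below. All 5 FAP marker genes examined (Col3a1, Twist2, Prrx1, Cd34 and Fbn1) had peaks in every library, as did the endothelial markers Sox17, Egfl7, Eng, Sox18 and S1pr1 for H3K27ac. Of 5 macrophage markers, 2 or 3 had H3K27ac in their windows, and Il1b and Ctss had none. Of 5 muscle fibre markers, Casq1 and Tnnc2 had H3K27ac in all libraries and Ttn and Neb in none (0.134% to 0.164% of tags in all). The myoblast gene Myog had a peak in its window in every library, but within 1000 bp of a gene end only in the young H3K27ac libraries. The muscle stem cell markers Pax7 and Cdh15 had no peak in any list that reaches them. Marker shares moved between the libraries compared below. In the order young vehicle, TSA at that age, old vehicle and old TSA, the FAP markers held 1.07%, 0.6999%, 0.828% and 0.843% of H3K27ac tags and the endothelial markers 0.850%, 1.002%, 0.657% and 0.728%. In H3K9/14ac the FAP shares were 0.454%, 0.336%, 0.346% and 0.416%, and those of the 3 endothelial markers in its stretch 0.479%, 0.571%, 0.468% and 0.359%. The part of these shifts, and of cells other than FAPs, in the values below was not tested.

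Acetylated and unacetylated Slc promoters differed in their CG pairs, and the following sequences show that range. They are the 150 bases before an annotated start (before the gene's outer end, where that lies further upstream), from RefSeq on GRCm38.p6, written 5′ to 3′ on the gene's strand with CG pairs in capitals. Slc30a1 (zinc exporter of the plasma membrane, chr1:191906547-191906696, plus strand) and Slc2a10 (facilitative glucose transporter, chr2:165503747-165503896, plus strand) had both marks on their promoters in all libraries. Promoters as counted for the marks run past the start, and at Slc30a1 no listed peak overlapped the printed bases themselves. Its marked regions began after them, at chr1:191906706 for H3K27ac and chr1:191906702 for H3K9/14ac. A further H3K9/14ac region, listed under TSA only, ended before them at chr1:191906538.
Slc30a1: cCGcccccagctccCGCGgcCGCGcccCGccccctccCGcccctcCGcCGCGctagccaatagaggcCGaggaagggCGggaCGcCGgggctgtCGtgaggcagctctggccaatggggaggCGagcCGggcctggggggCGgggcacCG
Slc2a10: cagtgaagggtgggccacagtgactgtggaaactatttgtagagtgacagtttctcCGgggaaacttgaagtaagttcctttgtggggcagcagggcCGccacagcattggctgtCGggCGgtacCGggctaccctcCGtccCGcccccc
Slc39a10 (zinc importer, minus strand) has 2 starts in the table. The inner one (chr1:46853619-46853768) carried both marks in all libraries and the outer one (chr1:46925777-46925926) neither.
Slc39a10 inner: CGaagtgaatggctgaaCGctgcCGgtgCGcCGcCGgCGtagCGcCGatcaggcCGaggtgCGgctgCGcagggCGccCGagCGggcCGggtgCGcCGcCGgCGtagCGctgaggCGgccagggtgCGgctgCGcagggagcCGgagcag
Slc39a10 outer: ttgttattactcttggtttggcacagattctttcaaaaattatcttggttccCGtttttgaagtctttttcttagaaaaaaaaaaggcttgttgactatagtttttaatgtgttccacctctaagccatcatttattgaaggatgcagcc
At Slc45a3 (sugar transporter family, plus strand) the outer start (chr1:131962765-131962914) had H3K9/14ac in 3 libraries and no H3K27ac, and the inner start (chr1:131970459-131970608) had neither mark.
Slc45a3 outer: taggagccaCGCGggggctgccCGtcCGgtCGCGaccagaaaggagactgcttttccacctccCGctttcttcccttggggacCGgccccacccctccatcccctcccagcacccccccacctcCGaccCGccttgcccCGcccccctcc
Slc45a3 inner: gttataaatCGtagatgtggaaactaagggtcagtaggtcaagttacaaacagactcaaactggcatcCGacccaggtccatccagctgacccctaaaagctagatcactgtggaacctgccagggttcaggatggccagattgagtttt
Slc12a1 (kidney sodium, potassium and chloride cotransporter, chr2:125152360-125152509, plus strand) and Slc38a11 (amino acid transporter family, chr2:65364027-65364176, minus strand) had neither mark in any library.
Slc12a1: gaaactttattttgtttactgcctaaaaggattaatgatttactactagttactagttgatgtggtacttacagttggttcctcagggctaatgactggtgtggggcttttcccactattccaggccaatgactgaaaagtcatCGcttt
Slc38a11: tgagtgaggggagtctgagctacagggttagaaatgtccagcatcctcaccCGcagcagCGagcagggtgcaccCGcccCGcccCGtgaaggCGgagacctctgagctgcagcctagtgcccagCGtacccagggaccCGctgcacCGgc

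These 150 bases hold 19 CG pairs at Slc30a1, 25 at the inner and 1 at the outer Slc39a10 start, 11 and 2 at the outer and inner Slc45a3 starts, and 1 at Slc12a1. Slc2a10, although acetylated, has 7, and the unacetylated Slc38a11 promoter has 9, so the number of CG pairs does not separate every acetylated from every unacetylated promoter. Over 300 bases (250 before to 50 after the start), the 17 starts with both marks in all libraries, which belong to 14 genes, held a median of 23 CG pairs (6 to 47). The 7 starts with H3K9/14ac in at least 1 library and no H3K27ac held 21 (11 to 43). At Slc12a5, Slc24a3 (with 43) and Slc2a6 it was listed in 1 library only. The 23 starts with neither mark held 6 (0 to 25). The ratio of observed to expected CG pairs had medians of 0.758, 0.703 and 0.302 in these classes, 0.611 over all 71 starts of the 58 genes found in the promoter table, and 0.567 over 21263 starts of protein-coding genes. The other 12 genes have no start in that table.

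**Figure D1:**
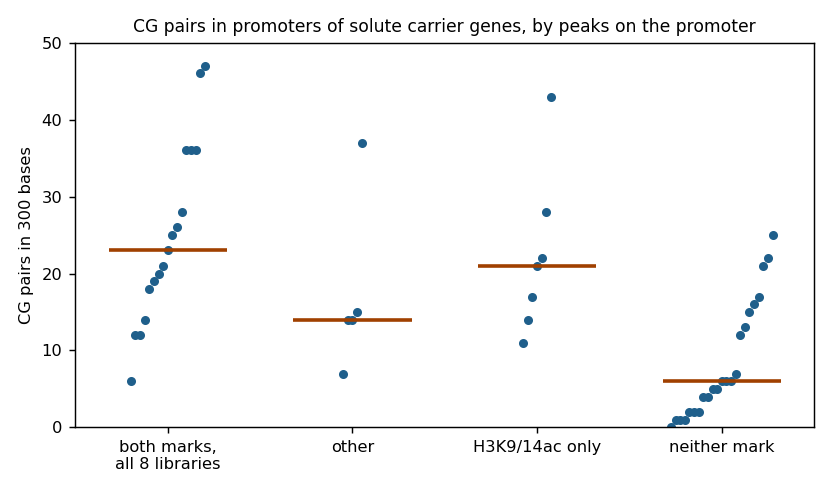
CG pairs in the 300 bases around each annotated start of the Slc genes in the H3K9/14ac stretch, by the marks on the promoter, with 1 point per start and a line at the median. The 23 starts with neither mark have a median of 6, against 23 where both marks were present in all libraries.

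GC boxes (GGGCGG, either strand) occurred in 57.7% of the 71 Slc promoters, in 46.2% of the 21263 promoters of protein-coding genes and in 35.7% of all 32851 promoters in the table. CCAAT boxes (CCAAT) were in 40.8%, 38.2% and 37.4%. The core of the metal response element (TGCGCNC or TGCACNC), a sequence bound by the zinc sensor of the cell, was found in 35.2%, 29.3% and 25.7%. It was in 5 of 11 promoters of the metal carriers (with 2 matches at Slc30a1), and about as often in those of carriers of nucleotide sugars (4 of 9), inorganic ions (6 of 14) and sugars (6 of 15), with 2 of 8 for amino acids, 1 of 7 for mitochondrial carriers and 1 of 7 for vitamins. Such matches describe letters only.

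H3K27ac peaks lay in the windows of 43 of 70 Slc genes in the young vehicle library (61.4%, exact 95% binomial interval 49.0 to 72.8, counting error only), 38 with TSA at that age (54.3%), 37 in old vehicle (52.9%) and 44 in old TSA (62.9%). Over all 3789 genes the shares were 61.5%, 59.4%, 56.9% and 61.4%, all inside the intervals of the Slc shares. H3K9/14ac peaks lay in 31, 35, 33 and 33 of 48 windows in the same order of libraries (64.6%, 72.9%, 68.8% and 68.8%, against 61.5%, 66.0%, 65.1% and 63.4% of all genes). H3K27ac was present in all 4 libraries at 36 Slc genes (51.4%, against 55.8% of all genes), in some at 10 (14.3% against 7.63%) and in none at 24 (34.3% against 36.5%).

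**Figure D2:**
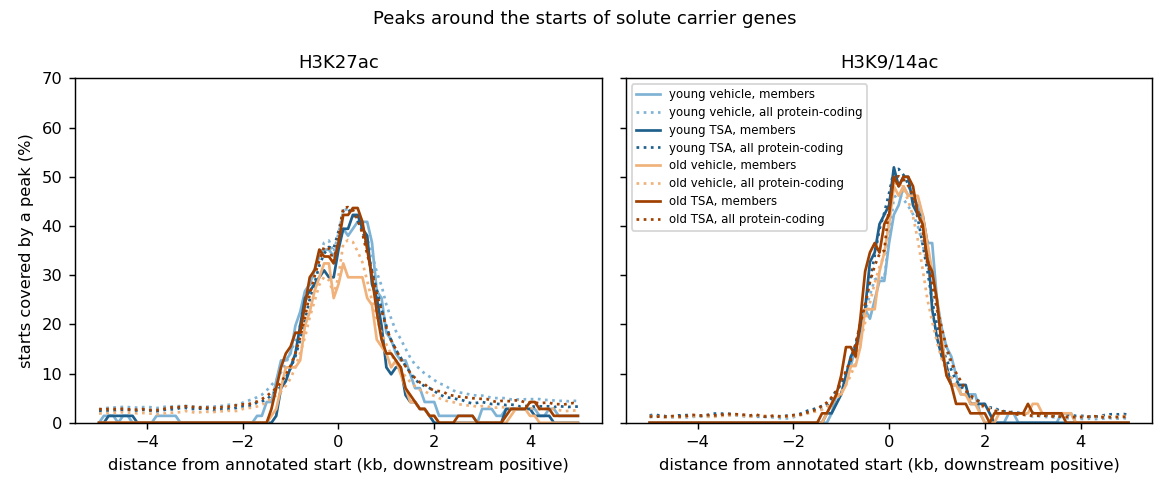
Share of annotated starts covered by a peak, by distance from the start (kb, downstream positive), in each library, for Slc genes (solid, 71 starts for H3K27ac and 52 for H3K9/14ac) and all protein-coding genes (dotted). Coverage of Slc starts peaks between 32.4% and 43.7% for H3K27ac and between 48.1% and 51.9% for H3K9/14ac.

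By substrate, H3K27ac in all 4 libraries was found at 8 of 11 metal carriers, 5 of 6 mitochondrial carriers, 5 of 8 carriers of vitamins, choline and organic ions, 4 of 6 of nucleotide sugars and nucleosides, 7 of 15 of sugars, monocarboxylates and fatty acids, 3 of 10 of amino acids and neurotransmitters, and 4 of 14 of inorganic ions. Over all genes of the stretch the share was 55.8%. These class counts include Slc25a54 (mitochondrial), Slc32a1 (neurotransmitters) and Slc13a3 (grouped with sugars), which had no H3K27ac tags on the gene or within 1000 bp of its ends. Of the 24 genes without H3K27ac, 10 were ion carriers. In order of position the first 10 were Slc9a4, Slc9a2, Slc4a3, Slc19a3, Slc26a9, Slc45a3, Slc30a10, Slc39a12, Slc2a6 and Slc4a10. A further unmarked gene was Slc2a2, the glucose transporter of liver and pancreatic beta cells, and another was Slc12a5, a chloride exporter of neurons.

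**Figure D3:**
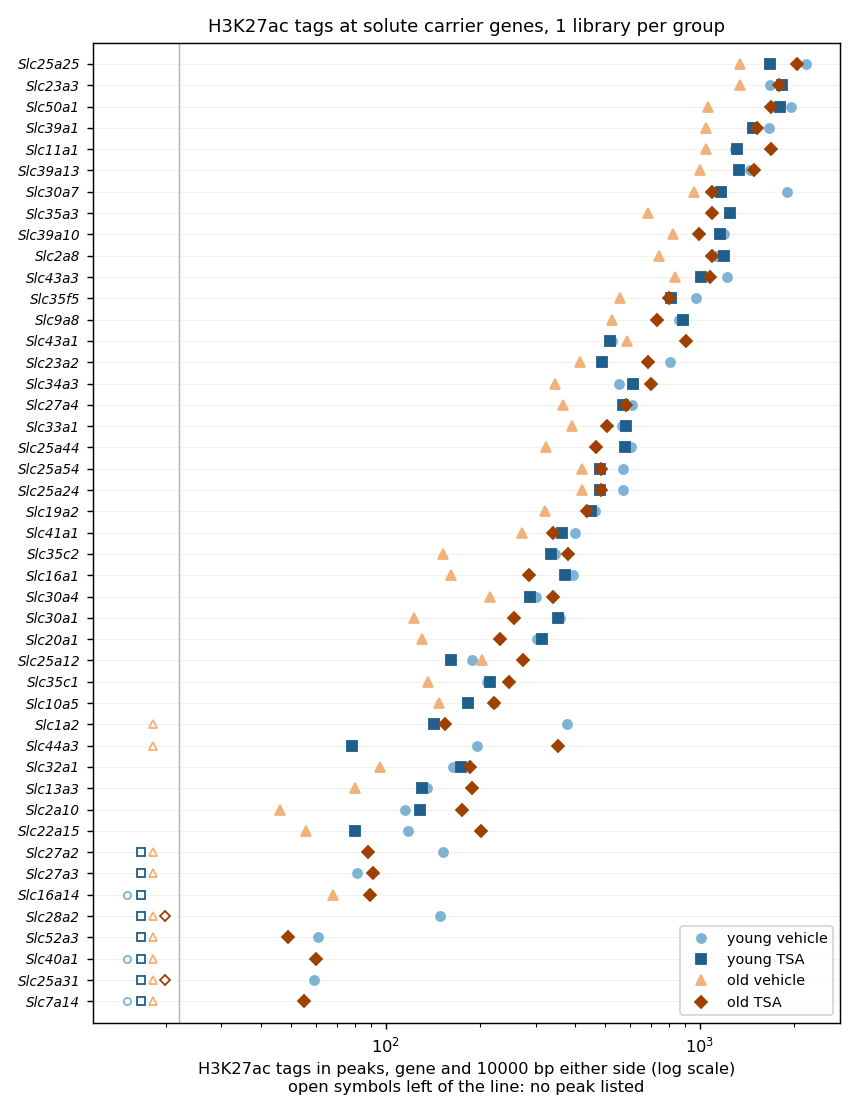
H3K27ac tags (log axis) in the window of each Slc gene with a peak in at least 1 library, with a symbol per library and open symbols for no peak. Old vehicle is the lowest of the 4 libraries for most genes, and it also has the fewest tags in all peaks (952786).

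Among metal carriers, Slc39a1 (zinc importer) held 1656 H3K27ac tags in young vehicle, 1482 with TSA at that age, 1047 in old vehicle and 1524 in old TSA. The same order of libraries is kept below. Slc39a13, a zinc transporter of the early secretory pathway needed for connective tissue, held 1447, 1329, 1000 and 1491. For both, old vehicle was lowest and the other 3 libraries lay close together. Slc30a7, which loads zinc into the Golgi, held 1888, 1170, 956 and 1096, so that young vehicle alone was high. Its region chr3:115950089-115951763, inside the gene, had 253 tags in young vehicle, 73 in old vehicle and no peak in either TSA library. Slc39a10 had 1196, 1161, 821 and 993, and its region chr1:46851522-46852066 was likewise listed only under vehicle (70 and 83 tags).

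Slc11a1, a metal transporter of the phagosome typical of macrophages, held 1296, 1316, 1044 and 1679 tags. Only 11.3% to 13.9% of them lay on the gene, counted here and below with 1000 bp beyond its ends, and between 526 and 751 lay on the neighbouring genes Catip and Ctdsp1 alone. Summed tags of the 5 macrophage markers were 0.0297% to 0.0443% of H3K27ac tags and higher in old TSA than in any other library. Their part in the Slc11a1 values was not tested. Slc40a1, the only known iron exporter of the cell, had H3K27ac in old TSA alone (60 tags), while H3K9/14ac was there in all libraries (182, 273, 309 and 166).

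Slc30a1 (chr1:191906697-191913248) held 360, 353, 123 and 256 tags, so that both old libraries lay below both young ones. The promoter region chr1:191906706-191907456 carried 185, 239, 123 and 256 of these. A region upstream of the gene (chr1:191896933-191897702) was listed in the young libraries only (87 and 114), and chr1:191907820-191908555 in young vehicle only (88). H3K9/14ac tags of Slc30a1 were 315, 471, 288 and 201, again lower in both old libraries.

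For the mitochondrial carriers, Slc25a25 (an exchanger of ATP-magnesium for phosphate) had 2185, 1667, 1341 and 2032 H3K27ac tags, the most of the genes named here in the sum over libraries. Of these, 87.1% to 91.0% lay on the gene, but only 53.3% to 61.4% on it and on no other gene. A region inside the gene (chr2:32436861-32438076) was listed under vehicle only (161 and 66 tags). Slc25a44, which carries branched-chain amino acids, held 602, 578, 324 and 469. Slc25a24 and Slc25a54 are neighbours whose windows hold the same tags (569, 480, 421 and 483), all of them on Slc25a24. Slc25a12, the aspartate and glutamate carrier of the malate-aspartate shuttle, held 189, 162, 202 and 273, with both old libraries above both young ones. In H3K9/14ac it held 187, 321, 274 and 164, where young TSA was the highest.

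Vitamin and organic ion carriers were led by Slc23a3 (1674, 1826, 1345 and 1791 tags), an orphan member of the ascorbate transporter family. Between 19.6% and 22.7% of these lay on the gene, all of them where another gene lies too, so that 0 tags were on Slc23a3 alone. Slc23a2, which takes up vitamin C, held 805, 487, 416 and 686 and is covered by 10 separate regions, of which 4 were listed in young vehicle alone. Slc44a3, of the choline transporter-like family, had 196, 78, no peak in old vehicle, and 353. Slc22a15, an organic cation and zwitterion transporter, had 118, 80, 56 and 201. Old TSA was the highest of the 4 libraries for both.

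Sugar and fuel carriers included Slc50a1 (glucose exporter; 1946, 1798, 1062 and 1680 tags), of which 31.5% to 39.6% lay on the gene (24.6% to 31.5% on it alone), and Slc2a8 (intracellular glucose transporter; 1124, 1190, 741 and 1096), where the share was at most 9.05%. Slc16a1, the lactate and pyruvate transporter of the plasma membrane, held 395, 372, 162 and 287 in a single region over its start (chr3:104637696-104639592). Both old libraries were below both young ones. Slc2a10 held 115, 129, 46 and 175.

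Slc35a3, which carries UDP-N-acetylglucosamine into the Golgi, held 1238, 1251, 686 and 1095 tags, and Slc35f5 held 970, 807, 559 and 796. Among ion carriers, Slc9a8 (sodium and proton exchanger of endosomes and Golgi) had 858, 882, 526 and 731. Slc20a1, a phosphate importer, had 304, 314, 131 and 231, with both old libraries lower. Amino acid families were led by Slc43a3, a nucleobase transporter by function (1219, 1010, 836 and 1076), and Slc43a1, a carrier of large neutral amino acids (524, 519, 588 and 907). At Slc43a1 both old libraries were above both young ones, and it was the only gene of these 6 at which old vehicle was not the lowest library. These tags are unscaled too, so the lower level of old vehicle across shared regions enters them.

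In young FAPs, H3K27ac with TSA was set against vehicle. Of 38 Slc genes with tags in both, 2 were at least 2-fold lower in relative tags (background 1.93% of genes) and 0 at least 2-fold higher (0.672%). Slc1a2, a glutamate transporter, went from 377 to 143 tags (relative tags -1.28 ± 0.14) and Slc44a3 from 196 to 78 (-1.21 ± 0.19). Next were Slc23a2 (-0.61 ± 0.08), Slc30a7 (-0.57 ± 0.05) and Slc22a15 (-0.44 ± 0.21). The highest were Slc2a10 (0.28 ± 0.19), Slc34a3 (0.27 ± 0.08), Slc23a3 (0.24 ± 0.05), Slc32a1 (0.21 ± 0.16) and Slc2a8 (0.20 ± 0.06). Only Slc1a2 (-0.83), Slc30a7 and Slc23a2 (-0.04) of the 5 lowest stayed below 0 with lists of equal length, where Slc44a3 stood at 0.0043 and Slc22a15 at 0.22. On the gene body alone Slc2a10 stood at -1.62 and Slc2a8 at 0.85.

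A peak in young vehicle and none in young TSA was found at 5 genes (background 2.61%): Slc27a2 (fatty acid transporter, 152 tags), Slc28a2 (nucleoside transporter, 149), Slc27a3 (81), Slc52a3 (riboflavin transporter, 61) and Slc25a31 (59). The reverse was found at 0 (0.449%). Acetylated length was shorter with TSA at 39 of 70 genes (background 52.4%) and longer at 4 (9.47%). Relative tags were above 0 at 57.9% of the 38 genes (background 50.3%), but at 76.3% when centred on total tags and 28.9% unscaled. Of the 38, 20 kept their sign under 3 scalings (relative, centred on total tags, unscaled), 11 higher and 9 lower.

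In old FAPs, TSA against vehicle gave the opposite balance of H3K27ac lengths, with 39 genes longer (background 53.8%) and 5 shorter (7.86%). Of 37 genes with tags in both, 2 were at least 2-fold higher (5.5%) and 0 lower (0.373%). They were Slc22a15, from 56 to 201 tags (1.34 ± 0.22), and Slc2a10, from 46 to 175 (1.42 ± 0.24). Slc35c2 (fucosylation, 152 to 382; 0.82 ± 0.14), Slc13a3 (dicarboxylate transporter, 80 to 188; 0.73 ± 0.19), Slc30a1 (0.55 ± 0.16) and Slc34a3 (0.51 ± 0.09) followed. Slc30a7 (-0.31 ± 0.06), Slc25a24 with Slc25a54 (-0.31 ± 0.10), Slc39a10 (-0.23 ± 0.07) and Slc41a1 (magnesium transporter, -0.18 ± 0.12) were lowest, although their unscaled tags were higher with TSA. Of the Slc35c2 H3K27ac tags, 98.3% to 100% lay on the gene in each library, all of them where another gene lies too.

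Peaks in old TSA and none in old vehicle were found at 7 genes (background 4.83%), of which those with most tags were Slc44a3 (353), Slc1a2 (154), Slc27a3 (91), Slc27a2 (88) and Slc40a1 (60). The reverse was found at 0 (0.343%). Of these 7, Slc27a2, Slc27a3 and Slc52a3 are also among the genes whose peaks were listed in young vehicle and not in young TSA. The share of all genes in this overlap was not computed. Young vehicle and old TSA have the longest lists (7891 and 7571 peaks, against 5945 in young TSA and 5727 in old vehicle). The part of list length was not tested. At Slc27a2 and Slc52a3 no H3K27ac tags lay on the gene or within 1000 bp of its ends. Relative tags were above 0 at 64.9% of genes (background 64.1%), at 43.2% when centred on total tags and at 100% unscaled. Under all 3 scalings 16 of 37 were higher and 0 lower. As all genes were above 0 unscaled, none could be lower under all 3, so this balance is not read as a result.

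**Figure D4:**
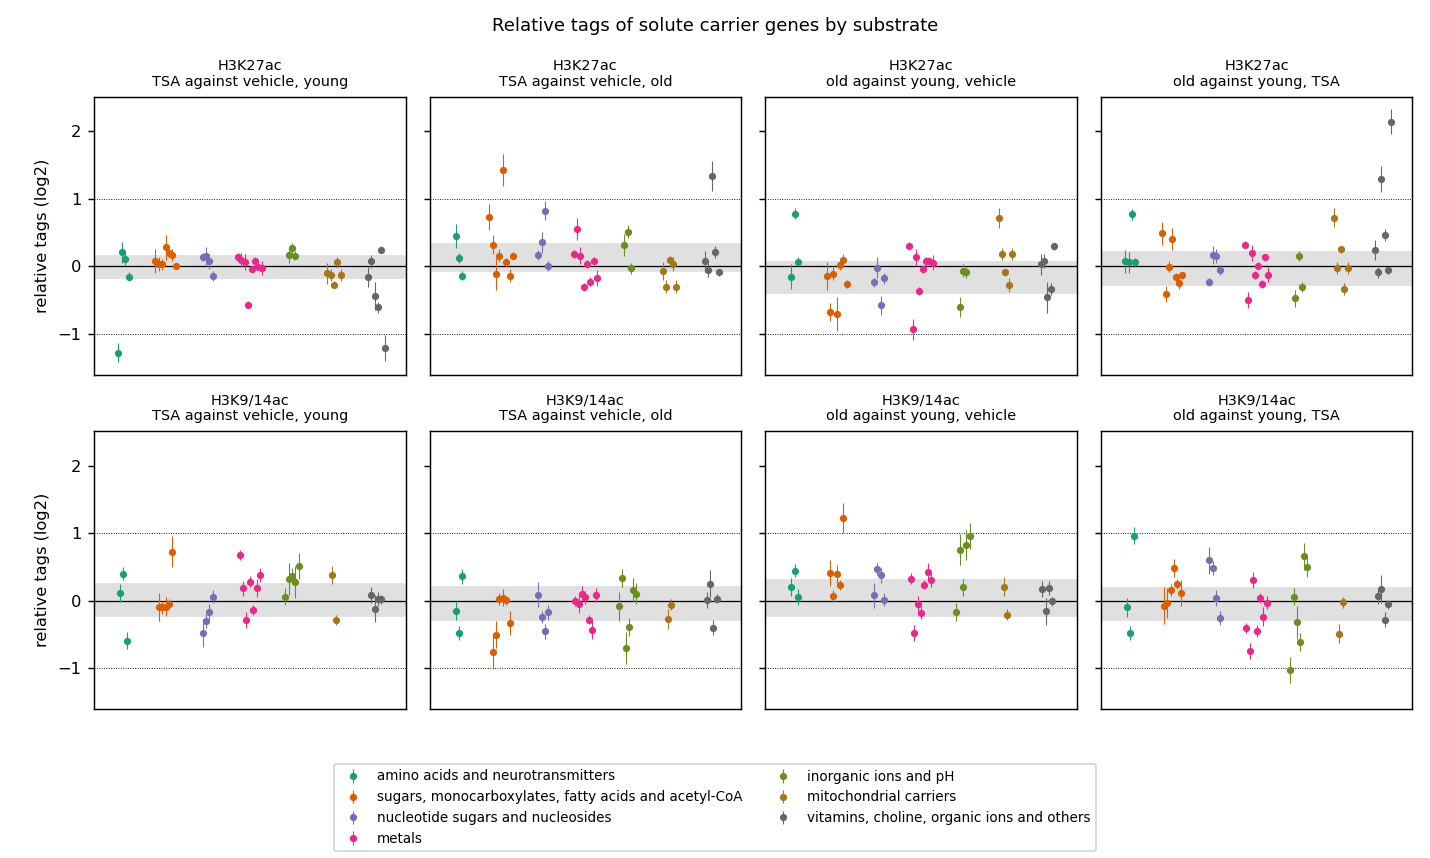
Relative tags (log2) of Slc genes with tags in both libraries of a comparison, with counting error (SE), coloured by substrate class, where the grey band is the middle 50% of all protein-coding genes and dotted lines mark 2-fold. Most Slc genes lie between the dotted lines in all 8 comparisons.

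Old against young FAPs under vehicle had 0 of 36 Slc genes at least 2-fold higher in H3K27ac (background 1.3%) and 0 lower (6.33%). Slc30a1 was the lowest (-0.94 ± 0.15), followed by Slc16a1 (-0.67 ± 0.13), Slc20a1 (-0.60 ± 0.15), Slc35c2 (-0.58 ± 0.14) and Slc22a15 (-0.46 ± 0.23, but 0.21 with lists of equal length). On the gene body alone Slc35c2 stood at -1.57 and Slc20a1 at -0.03. Slc43a1 (0.78 ± 0.09) and Slc25a12 (0.71 ± 0.15) were the highest and kept their sign under all 3 scalings, which 12 lower genes did too. Only 5.56% of genes were above 0 unscaled, which limits how many could be higher under all 3. Slc11a1 (0.30 ± 0.06), Slc23a3 (0.30 ± 0.05) and Slc25a24 with Slc25a54 (0.18 ± 0.09) were above 0 in relative tags but lower unscaled. Relative tags were above 0 at 41.7% of the 36 genes (background 32.3%), at 66.7% when centred on total tags and at 5.56% unscaled. Acetylated length was shorter in old at 41 genes (57.9%) and longer at 3 (3.88%). A peak in young vehicle only was found at 7 genes (4.86%), with most tags at Slc1a2 (377), Slc44a3 (196), Slc27a2 (152), Slc28a2 (149) and Slc27a3 (81), and in old vehicle only at 1 (0.264%), Slc16a14 (monocarboxylate transporter family, 68), whose peak lies outside the gene and 1000 bp around its ends.

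Under TSA the ages differed at 2 of 38 genes by at least 2-fold upward in old (background 3.96%) and at 0 downward (1.21%). These were Slc44a3, from 78 to 353 tags (2.14 ± 0.18; 0.38 with lists of equal length), and Slc22a15, from 80 to 201 (1.29 ± 0.19). Slc43a1 (519 to 907; 0.77 ± 0.08), Slc25a12 (0.72 ± 0.14) and Slc13a3 (0.49 ± 0.16) came next. Slc30a1 (-0.50 ± 0.12), Slc20a1 (-0.48 ± 0.13), Slc16a1 (-0.41 ± 0.11), Slc25a44 (mitochondrial carrier of branched-chain amino acids, -0.34 ± 0.09) and Slc9a8 (-0.31 ± 0.07) were lowest. On the gene body alone, which leaves out the upstream region listed only in the young libraries, Slc30a1 stood at 0.06 under TSA and at -0.54 under vehicle. A peak in old TSA and none in young TSA was found at 6 genes (2.69%), of which Slc27a3 (91 tags), Slc16a14 (89), Slc27a2 (88), Slc40a1 (60) and Slc7a14 (55) held most, and the reverse at 0 (0.633%). Above 0 in relative tags were 52.6% of genes (42.7%). Acetylated length was longer in old at 32 genes (34%) and shorter at 12 (28%).

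For H3K9/14ac, TSA against vehicle in young FAPs gave 0 of 31 Slc genes at least 2-fold higher (background 4.03%) and 0 lower (1.28%). Slc45a3 went from 60 to 131 tags (0.73 ± 0.22), Slc11a1 from 515 to 1087 (0.68 ± 0.08), and Slc4a3, an anion exchanger of excitable tissue, from 84 to 158 (0.51 ± 0.19). Slc43a1 (0.40 ± 0.10) and Slc25a12 (0.38 ± 0.13) followed. Only 10.8% to 15.3% of the H3K9/14ac tags of Slc11a1 lay on the gene. On other genes alone lay 377 in young vehicle and 683 in young TSA. Of the macrophage markers, 3 lie in the H3K9/14ac stretch and 2 of these (Fcgr3 and Spi1) had peaks. They held most H3K9/14ac in young TSA (0.0757% of tags, against 0.0453% to 0.0567% in the other libraries), and their part in the Slc11a1 value was not tested. Slc43a3 (-0.59 ± 0.13) and Slc28a2 (-0.47 ± 0.21, with at most 26% of its tags on the gene) were lower under all 3 scalings, whereas Slc35c1 (GDP-fucose transporter, -0.30 ± 0.10) and Slc30a4 (zinc transporter, -0.29 ± 0.12) were higher unscaled. Peaks in TSA and none in vehicle were found at 4 genes (5.38%): Slc12a5 (219 tags), Slc1a2 (96), Slc13a3 (66) and Slc2a6 (39), and the reverse at 0 (0.85%). Acetylated length was longer with TSA at 24 of 48 genes (41.6%) and shorter at 11 (25.3%). The share above 0 in relative tags was 58.1% (52%), and 90.3% unscaled.

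**Figure D5:**
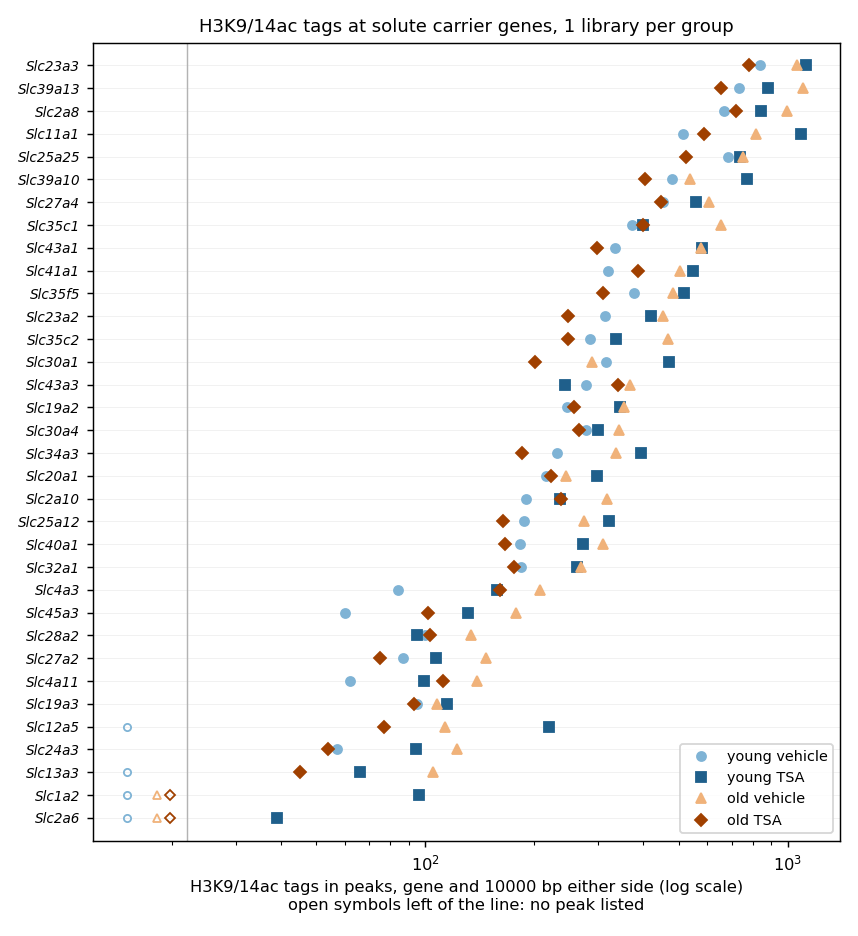
H3K9/14ac tags (log axis) in the window of each Slc gene with a peak in at least 1 library, with a symbol per library and open symbols for no peak. Young TSA and old vehicle, the libraries with most tags in all peaks (631446 and 608674), hold the highest value at each gene shown.

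In old FAPs, TSA against vehicle gave 0 of 33 genes at least 2-fold higher in H3K9/14ac (background 1.82%) and 0 lower (2.68%). A peak in vehicle only was found at 0 genes (2.97%), as was a peak in TSA only (1.24%). Slc24a3 (sodium, potassium and calcium exchanger) went from 122 to 54 tags (-0.71 ± 0.24), with Slc27a2 (-0.50 ± 0.20, all of whose tags lie on another gene), Slc43a1 (-0.48 ± 0.10), Slc35c2 (-0.46 ± 0.11) and Slc40a1 (-0.43 ± 0.14) next. Slc43a3 (0.36 ± 0.11), Slc20a1 (0.33 ± 0.13), Slc19a3 (thiamine transporter, 0.25 ± 0.20), Slc4a11 (0.16 ± 0.18) and Slc4a3 (0.11 ± 0.15) were above 0, but each was lower unscaled. On the gene body alone Slc24a3 stood at -2.41, Slc4a11 at -0.87 and Slc4a3 at -0.03. The share above 0 was 42.4% (44.7%), and 0% unscaled. Acetylated length was longer with TSA at 22 genes (41.5%) and shorter at 11 (24.8%).

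In old against young H3K9/14ac under vehicle, 1 of 31 genes was at least 2-fold higher (background 5.42%) and 0 lower (1.51%). This was Slc45a3, from 60 to 178 tags (1.23 ± 0.22). Slc4a3 (84 to 207; 0.96 ± 0.19), Slc4a11 (62 to 139; 0.82 ± 0.22), Slc24a3 (57 to 122; 0.75 ± 0.23) and Slc35c1 (373 to 656; 0.47 ± 0.09) followed. Slc30a1 (315 to 288; -0.47 ± 0.12) was the only gene lower under all 3 scalings, against 19 higher. Slc25a25 (-0.21 ± 0.08; 0.04 on the gene body alone), Slc39a10 (-0.18 ± 0.09) and Slc20a1 (-0.17 ± 0.13) were below 0 in relative tags and higher unscaled. Relative tags were above 0 at 74.2% of the 31 genes (background 52.5%) with a median of 0.20, against 0.02 over all genes. Unscaled, the share was 96.8%. Almost no gene could therefore be lower under all 3 scalings, so the balance given above is not read as a result. Acetylated length was longer in old at 19 genes (28.6%) and shorter at 14 (37.1%). Peaks in old vehicle only were found at 2 genes (4.32%), Slc12a5 (113 tags) and Slc13a3 (105), and in young vehicle only at 0 (0.708%).

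Under TSA, 1 of 33 genes was at least 2-fold lower in old H3K9/14ac (background 2.66%), namely Slc12a5 (219 to 77; -1.03 ± 0.19, and -0.42 with lists of equal length), and 0 higher (1.81%). Slc30a1 (471 to 201; -0.75 ± 0.12), Slc34a3 (-0.61 ± 0.13, with at most 15.5% of its tags on the gene), Slc25a12 (-0.49 ± 0.14) and Slc43a1 (-0.48 ± 0.10) were next. Slc43a3 (243 to 340; 0.96 ± 0.12), Slc4a11 (0.66 ± 0.20, but -0.35 on the gene body alone), Slc28a2 (0.60 ± 0.21), Slc4a3 (0.51 ± 0.16) and Slc2a10 (0.49 ± 0.13) were highest. Slc2a6 (39 tags) and Slc1a2 (96) had a peak in young TSA only (background 3.54% of genes), and 0 genes in old TSA only (0.885%). The share of genes above 0 was 48.5% (43.7%), and 18.2% unscaled. Acetylated length was longer in old at 19 genes (31.8%) and shorter at 16 (35.1%). The comparisons of a mark share libraries and are given side by side only.

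The marks were set beside each other at the 48 genes covered by both. Both were listed in all libraries at 23 genes (47.9%, against 52.1% of all 2825 genes) and neither in any library at 11 (22.9% against 29.8%). H3K9/14ac in all 4 libraries without any H3K27ac was found at 5 (10.4% against 2.58%): Slc4a3, Slc19a3, Slc45a3, Slc4a11 and Slc24a3. Their H3K9/14ac tags were low, from 54 to 207. At Slc43a1 and Slc25a12 the marks went different ways with age under TSA, since H3K27ac was higher (0.77 and 0.72) and H3K9/14ac lower (-0.48 and -0.49) in old. Slc30a1 was the only one of the 48 lower in old by more than 2 counting errors in both marks under both treatments, although not on the gene body for H3K27ac under TSA.

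A window can hold a neighbour's peaks. Over all Slc windows, 49.8% to 51.3% of the H3K27ac tags lay on the solute carrier gene and its ends alone and 25.5% to 27.5% on other genes alone. At 7 genes with H3K27ac in the window (Slc13a3, Slc16a14, Slc25a31, Slc25a54, Slc27a2, Slc32a1 and Slc52a3) none lay on the gene or within 1000 bp of its ends in any library. The same held for H3K9/14ac at 3 of 35 genes, Slc13a3, Slc27a2 and Slc32a1. Another gene lies in 42 of the 70 windows. H3K27ac regions in the Slc windows numbered 141, of which 76 were in all 4 lists (53.9%, against 42.6% of all 8704 regions), and 4 were listed under vehicle at both ages and not under TSA (2.84% against 1.21%): at Slc39a10, Slc25a25, Slc23a2 and Slc30a7. H3K9/14ac regions numbered 76, with 46 in all 4 lists (60.5% against 46.6%). The regions they are set against were not limited to gene windows, so these sets are not alike. Counted by gene window, H3K27ac in all 4 libraries was found at 51.4% of Slc genes and 55.8% of all genes. For H3K9/14ac these shares were 64.6% and 59.5%.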

How the data were processed

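Peak lists from ChIP-seq of FAPs were used, 1 per mark, age and treatment (8 libraries; 4 input samples were not used here). Per the file headers, each list is output of HOMER's program for differential peaks in which 1 library's tag directory served as both target and background, and the deposited whole-number count of tags in each peak is not normalized. Per the submitters' processing notes, the build is GRCm38 and the tools, with no role given, include TopHat2 2.0.9, MACS2, Bowtie 0.12.7 and HOMER. The sources used here do not give the depth of whole libraries. Lists end inside an incomplete line at different points of the genome, so genes were compared only in the stretch all 4 lists of a mark cover, and 0 columns of other samples were present.

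Genes came from a RefSeq table (GRCm38.p6) without exons, so exon or intron position is not given. Tags of peaks crossing a window border were shared in proportion to overlap. Regions are peaks merged over the lists of a mark where they overlap or touch. Relative tags, their counting errors and exact binomial intervals (95%) were computed with Python 3.11.15, numpy 2.4.6, pandas 2.3.3 and scipy 1.17.1, and the calculation was tested on simulated data. No peak means no entry in a list of called peaks, so no fold is given against it. With 1 library per group nothing was tested between groups.

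Named genes are, per comparison, the 5 highest and 5 lowest in relative tags among those with at least 50 tags in both libraries, up to 5 with a peak in only 1 library in each direction, the 10 with most H3K27ac tags, the 2 with most in each substrate class, and the first 10 with no peak. Others (Slc2a10 with 46 tags in old vehicle, 2 further unmarked genes, genes differing between the marks) were named after their values were seen. 1 gene that the rule names is counted but not reported here by name or drawn in the plots of tags. The genes, classes and markers were chosen with earlier results of these data known. Alternatives were flanks of 2000 bp or none, whole tags of crossing peaks, peaks in the upper 50% by tags, other centring, lists of equal length and a minimum of 50 tags.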

Additional observations from a re-analysis of the deposited data

Results flagged for a closer look

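At 5 genes TSA and vehicle libraries differed in opposite directions in young and old FAPs, each by more than 2 counting errors. These were 2 of the 36 genes with tags in all 4 libraries for H3K27ac and 3 of 31 for H3K9/14ac. The share over all protein-coding genes was not computed, and none of these differences between ages was tested. In H3K27ac, Slc23a2 stood at -0.61 in young and 0.22 in old, and Slc22a15 at -0.44 and 1.34. With lists of equal length the young values became -0.04 for Slc23a2 and 0.22 for Slc22a15. In H3K9/14ac, Slc34a3 (a phosphate transporter of the kidney) stood at 0.37 in young and -0.39 in old, although at most 15.5% of its tags lay on the gene or within 1000 bp of its ends and the rest on other genes. Slc43a1 stood at 0.40 and -0.48, and Slc43a3 at -0.59 and 0.36, where the unscaled old value of Slc43a3 was -0.11.

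Beyond the stretch compared for H3K9/14ac, 22 of the Slc genes are covered by 3 of its 4 lists, which no comparison uses. In each of these libraries (young with TSA, and old with vehicle or TSA) 16 of the 22 had a peak, and these were not the same genes throughout. The share of all protein-coding genes with a peak there was not computed. Windows of Slc25a24 and Slc25a54 hold the same tags (268, 244 and 208), and both genes are counted.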

How the results depend on the processing

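No paired analysis was possible because each group has 1 library. Of 352 values recomputed, 288 were counted as unchanged. For counts this meant within 1.5 times the reported one, and for shares and levels within counting error. Direction was checked only for genes at least 2-fold higher or lower in a comparison (56 values), of which 45 were counted as unchanged. The other named genes were not part of this check, and sign changes at some of them are given above. Shares and medians counted as unchanged were not checked for direction. Centring on total tags put 43.2% (TSA, old), 76.3% (TSA, young) and 66.7% (old against young, vehicle) of genes above 0 in H3K27ac, and without centring these were 100%, 28.9% and 5.56%. H3K9/14ac without centring gave 0% (TSA, old), 90.3% (TSA, young), 96.8% (age, vehicle) and 18.2% (age, TSA). Peaks in the upper 50% by tags put 62.1% above 0 for H3K27ac with age under vehicle. Genes with a peak were 38.6% for H3K27ac in old vehicle on the gene body alone, and 50% in old TSA and 47.9% in young vehicle for H3K9/14ac in the upper 50%. In H3K27ac the genes at least 2-fold higher with TSA in old numbered 0 (upper 50%), 6 (not centred) and 1 (at least 50 tags); with TSA in young 1 higher (2000 bp flank, or upper 50%), and lower 1 (2000 bp flank), 0 (upper 50%) and 0 (equal lists). With age under TSA 0 (upper 50%) and 1 (equal lists) were higher, and under vehicle 1 was higher (upper 50%, or equal lists), and 3 (gene body) and 6 (not centred) lower. In H3K9/14ac, TSA in old had 1 lower (gene body, or upper 50%) and 2 (not centred), and TSA in young 1 (whole tags) and 2 (not centred) higher. Age under TSA had 2 (upper 50%) and 1 (total tags) higher, and 3 (gene body), 0 (upper 50%), 0 (total tags), 3 (not centred) and 0 (equal lists) lower. Age under vehicle had 2 (whole tags), 0 (upper 50%) and 4 (not centred) higher. Slc44a3 with TSA in young reversed to 0.0043 with lists of equal length. The cause of these changes was not tested beyond what each setting leaves out. Genes with few tags are limited by counting error, and no peak in a list does not show that a mark was absent.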

Other observations

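The young vehicle list of H3K9/14ac does not reach these 22 genes, so no comparison with it was made. Slc16a1 held 689 H3K9/14ac tags with TSA at the young age, 550 in old vehicle and 358 in old TSA, and Slc35a3 held 1221, 913 and 920. Slc22a15 held 285, 264 and 325, and was the only one of these 3 genes highest in old TSA. Slc7a11, the cystine and glutamate exchanger, had no H3K27ac in any library, but H3K9/14ac in young TSA (108 tags) and old TSA (41) and none in old vehicle. Slc17a9, the vesicular nucleotide transporter, also without H3K27ac, had 126 tags with TSA at the young age, 172 in old vehicle and no peak in old TSA.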
